A study of Homo sapiens with 21 samples.

Results

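Crosslinked reads on 6 human mRNAs, TAF1D, TCAF1, RBM39, CCAR1, TPR and IARS, are described here in libraries of the RNA-binding proteins KHSRP, FUBP3, CPSF1 and U2AF1. The 6 genes were chosen by name because each took a larger share of the reads in KHSRP than in FUBP3 libraries at each of 3 RNase I doses. They are 6 of 16461 gene names in the 9 libraries concerned and hold 1511 of 751479 clusters. A cluster is a stretch of overlapping reads that carry crosslink marks.

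The study compared ways of making PAR-CLIP libraries. Flp-In T-REx 293 cells, an established line from human embryonic kidney, carried a stably integrated FLAG-HA tagged copy of the protein under study, so that every library comes from a tagged transgene and none from an untagged control. New RNA was labelled with 4-thiouridine, and a base crosslinked by ultraviolet light is later sequenced as C where the gene has T. The fluorescent protocol (fPAR-CLIP) follows the bound RNA by a dye on the adapter, and the standard PAR-CLIP protocol by radioactivity. The groups used were KHSRP at 0.15, 0.5 and 1.5 U/µl RNase I, FUBP3 at the same 3 doses, KHSRP and FUBP3 at 0.5 U/µl RNase T1 by the radioactive protocol, CPSF1 at 0.5 U/µl RNase I, and U2AF1 at 1.5 and 15 U/ml of RNase A with T1. Each group is 1 library. Labelling was with 100 µM 4-thiouridine for 8 to 12 h, except for U2AF1, which had 250 µM for 2 h, and crosslinking used 0.3 J/cm2 in all of them.

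The labels' protocols name RIPA buffer with sonication for KHSRP, a chromatin fraction for U2AF1 and NP40 buffer for cytoplasmic proteins, without naming the buffer of FUBP3 or CPSF1. The lysis and the protein therefore cannot be told apart in any comparison of KHSRP with another protein. The reads in clusters numbered 2172248, 905433 and 200210 in the KHSRP libraries at 0.15, 0.5 and 1.5 U/µl, and 1683771, 1975646 and 810326 in those of FUBP3. The other libraries were shallower, at 125960 reads for KHSRP and 179853 for FUBP3 with RNase T1, 180426 for CPSF1, and 147453 and 75383 for U2AF1. The smallest cluster listed holds 4 reads for U2AF1 and 5 in the other libraries, so 0 reads means no cluster of that size. Each group is without a replicate. KHSRP and FUBP3 share 3 RNase I doses, but that contrast chose the genes, so its values are given dose by dose and no test between conditions was run. All intervals are 95% intervals for counting error only, and reads copied by PCR are not independent molecules.

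KHSRP, the KH-type splicing regulatory protein, and FUBP3 belong to the far upstream element-binding family, whose KH domains hold short single-stranded runs rich in U and G. KHSRP is known for roles in splicing, in the decay of AU-rich mRNAs and in microRNA maturation. U2AF1 is the small subunit of the factor that recognises the AG at the 3′ end of introns, and CPSF1 is a subunit of the complex that recognises the polyadenylation signal. Reads in introns come from RNA that has not been spliced, or from introns after their removal, and reads in the 3′ untranslated region (3′ UTR) can come from either precursor or mature mRNA.

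The 6 genes do not share a pathway. TAF1D encodes a subunit of the SL1 complex that starts transcription by RNA polymerase I, and its introns host small nucleolar RNAs (snoRNAs). RBM39 encodes a splicing factor related to U2AF2, CCAR1 a coactivator of nuclear receptors and of p53, and TPR the filament protein of the nuclear pore basket. The proteins of the other two genes are not known as nuclear factors. TCAF1 encodes a regulator of the cold-sensing channel TRPM8 at the plasma membrane, and IARS the cytoplasmic isoleucyl-tRNA synthetase.

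The sequences that carried the most reads show what was crosslinked. They are deposited cluster sequences on hg38, written 5′ to 3′ along the transcript. Those of the KHSRP libraries below are the largest cluster of each gene at the highest RNase I dose, where their clusters were shortest, and the largest with RNase T1. Capitals mark any of 7 short motifs fixed for the search, namely TGTGT or TGTAT, likewise TTGTT with its all-T kin TTTTT, the AU-rich pair of TATAT together with ATTTA, as well as GGGT. The CCAR1 sequence from RNase I is the first 30 bases of a cluster in the 3′ UTR.
TAF1D, KHSRP RNase I, chr11:93732633-93732672, minus strand: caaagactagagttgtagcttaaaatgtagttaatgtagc
TCAF1, KHSRP RNase I, chr7:143893778-143893819, minus strand: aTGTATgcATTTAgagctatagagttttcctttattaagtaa
RBM39, KHSRP RNase I, chr20:35708585-35708631, minus strand: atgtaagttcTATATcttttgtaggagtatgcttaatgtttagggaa
CCAR1, KHSRP RNase I, chr10:68791340-68791369, plus strand: aggtgatgcatgtttgattttagtagtata
TPR, KHSRP RNase I, chr1:186315343-186315405, minus strand: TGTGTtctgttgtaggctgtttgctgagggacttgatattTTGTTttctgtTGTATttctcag
IARS, KHSRP RNase I, chr9:92254714-92254762, minus strand: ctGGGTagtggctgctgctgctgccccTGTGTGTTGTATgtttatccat
TAF1D, KHSRP RNase T1, chr11:93736962-93736989, minus strand: cctttaatatagttatacttaaataatg
TCAF1, KHSRP RNase T1, chr7:143893891-143893913, minus strand: ttttatgtttatTATATtctctg
RBM39, KHSRP RNase T1, chr20:35739067-35739179, minus strand: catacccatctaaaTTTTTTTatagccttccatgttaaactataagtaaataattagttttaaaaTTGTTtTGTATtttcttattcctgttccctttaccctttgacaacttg
RBM39, FUBP3 RNase T1, chr20:35739075-35739114, minus strand: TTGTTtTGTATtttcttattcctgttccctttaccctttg
CCAR1, KHSRP RNase T1, chr10:68754993-68755013, plus strand: attacaacTATATcttatttg
TPR, KHSRP RNase T1, chr1:186361219-186361259, minus strand: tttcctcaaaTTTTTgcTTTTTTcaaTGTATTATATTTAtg
IARS, KHSRP RNase T1, chr9:92286764-92286784, minus strand: ttcttaaccttacataatatg

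These KHSRP clusters held 27 reads for TAF1D, 23 for TCAF1, 32 for RBM39, 23 for CCAR1, 15 for TPR and 21 for IARS at 1.5 U/µl RNase I. With RNase T1 they held 11 reads for TAF1D, 9 for TCAF1, 79 for RBM39, 19 for CCAR1, 21 for TPR and 42 for IARS. The deposited class was intron for TCAF1, RBM39, TPR and IARS in the RNase I library, 3′ UTR for CCAR1, and processed transcript, an exon of a non-coding transcript, for TAF1D. The FUBP3 cluster printed for RBM39 held 19 reads and lay inside the KHSRP cluster of the same enzyme. The run in which TTGTT stands 1 base before TGTAT thus lay in clusters of both proteins. Which bases were crosslinked within these clusters was not determined. The IARS sequence from RNase T1, the CCAR1 sequence from RNase I and both TAF1D sequences hold none of the listed motifs, which says only that these letters are not in those windows.

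The level of each mRNA is given as its reads per 100000 cluster reads of the library. RBM39, the splicing factor gene, had 367, 358 and 189.8 reads per 100000 in KHSRP at 0.15, 0.5 and 1.5 U/µl RNase I, against 52.0, 68.7 and 37.1 in FUBP3. These shares rest on 7962, 3237 and 380 reads in KHSRP and on 876, 1358 and 301 reads in FUBP3. RBM39 had the highest level of the 6 genes in all 6 of these libraries. Its lowest KHSRP level lay above its highest FUBP3 level, which the choice of the genes favours.

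IARS, the tRNA synthetase gene, had 180.5, 162 and 106 reads per 100000 in KHSRP, against 32.7, 32.3 and 22.7 in FUBP3, from 3920, 1464 and 213 reads in KHSRP and 550, 638 and 184 in FUBP3. TPR, the nuclear basket gene, had 85.8, 82.5 and 32.0 reads per 100000 in KHSRP, against 10.4, 10.8 and 6.42 in FUBP3. The TPR reads numbered 1864, 747 and 64 in KHSRP, and 175, 213 and 52 in FUBP3. Both genes were lowest at the highest dose in either protein. Their KHSRP and FUBP3 levels did not overlap, which the choice of the genes favours. The share of all genes without such overlap was not counted.

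CCAR1, the coactivator gene, had 72.6, 64.5 and 41.0 reads per 100000 in KHSRP, against 13.2, 10.8 and 8.14 in FUBP3, from 1576, 584 and 82 reads in KHSRP and 222, 214 and 66 in FUBP3. TAF1D, the polymerase I factor gene, had 55.1, 67.0 and 52.9 in KHSRP, against 7.90, 11.9 and 8.76 in FUBP3, from 1197, 607 and 106 reads in KHSRP and 133, 235 and 71 in FUBP3. TCAF1 had 25.2, 26.9 and 32.0 in KHSRP, against 3.56, 4.66 and 6.17 in FUBP3, from 547, 244 and 64 reads in KHSRP and 60, 92 and 50 in FUBP3. TCAF1 was the only one of the 6 whose level was highest at the highest dose in both proteins, but its counting intervals overlapped. At 0.5 and 1.5 U/µl they were 23.7 to 30.5 and 24.6 to 40.8 in KHSRP, and 3.75 to 5.71 and 4.58 to 8.13 in FUBP3. Fewer transcripts and less crosslinking per transcript cannot be told apart in these shares.

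Per kilobase of gene the order changed, because TAF1D is short. In KHSRP at 0.15 U/µl RBM39 had 8.96 reads per 100000 and kilobase, TAF1D 4.88, IARS 2.16, TPR 1.35, CCAR1 1.02 and TCAF1 0.496. At 1.5 U/µl TAF1D, at 4.68, and RBM39, at 4.64, differed by less than the counting error. In FUBP3 RBM39 was again first, at 1.27, 1.68 and 0.908 at the 3 doses, and TAF1D was second, at 0.699, 1.05 and 0.775.

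**Figure D1:**
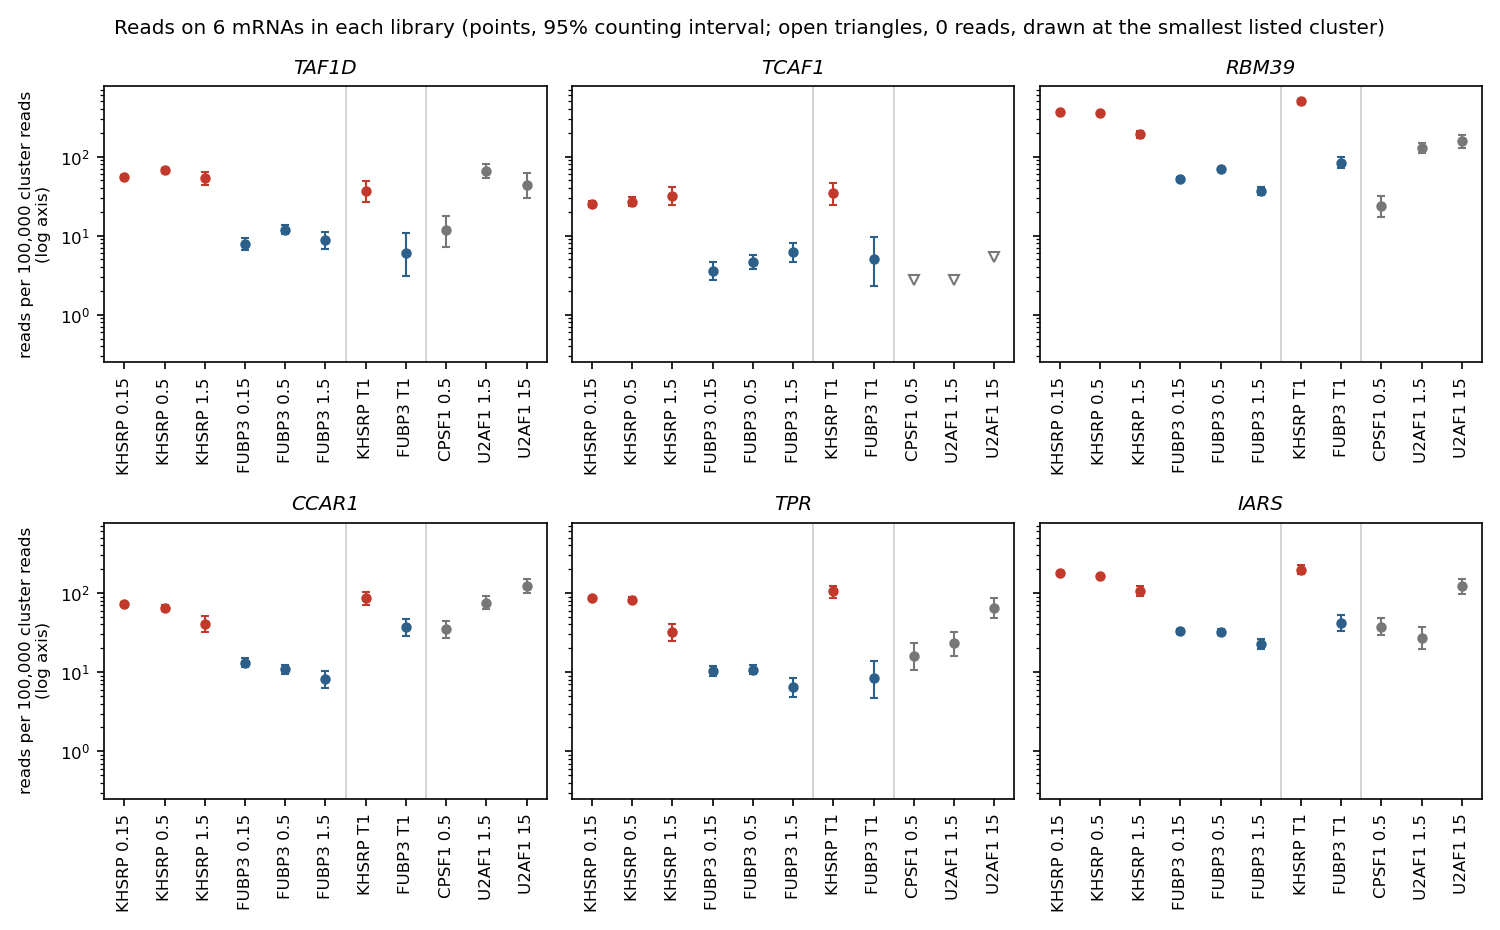
Reads per 100000 cluster reads (log axis) for each of the 6 mRNAs in each library, with 95% counting intervals. KHSRP points lie above the FUBP3 points at every RNase I dose for all 6 mRNAs, which is how they were chosen, and TCAF1 has no reads in CPSF1 or U2AF1, where open triangles stand at the smallest cluster listed.

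The ratio of KHSRP to FUBP3 is the contrast that chose the genes, so it is given as a description. On the log2 scale it was 2.80, 2.49 and 2.60 for TAF1D at 0.15, 0.5 and 1.5 U/µl, 2.82, 2.53 and 2.37 for TCAF1, and 2.82, 2.38 and 2.35 for RBM39. It was 2.46, 2.57 and 2.33 for CCAR1, 3.05, 2.94 and 2.32 for TPR, and 2.47, 2.32 and 2.23 for IARS. The fold thus ran between 4.69 for IARS at 1.5 U/µl and 8.26 for TPR at 0.15 U/µl. The widest counting interval was that of TCAF1 at 1.5 U/µl, at 1.84 to 2.91. The median over the 789 genes that reached 50 reads in all 6 libraries was 0.70, 0.65 and 0.57.

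All 6 genes were higher in KHSRP at each dose, as were 60.1% of the 789 genes. That share of genes depended on the minimum number of reads and rose with it. All 6 were at least 4-fold higher at each dose, as were 2.66% of the 789. By the smallest of its 3 ratios TAF1D stood 3rd among these genes, TCAF1 5th, RBM39 6th, CCAR1 7th, TPR 9th and IARS 10th. The smallest ratio of IARS, 2.23, lay just above that of FUBP1, a gene of the same protein family as KHSRP and not among the 6, which was 2.21 and 11th. The genes at ranks 1, 2, 4 and 8 were CCNL2, HNRNPH1, CCNL1 and DDX46.

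**Figure D2:**
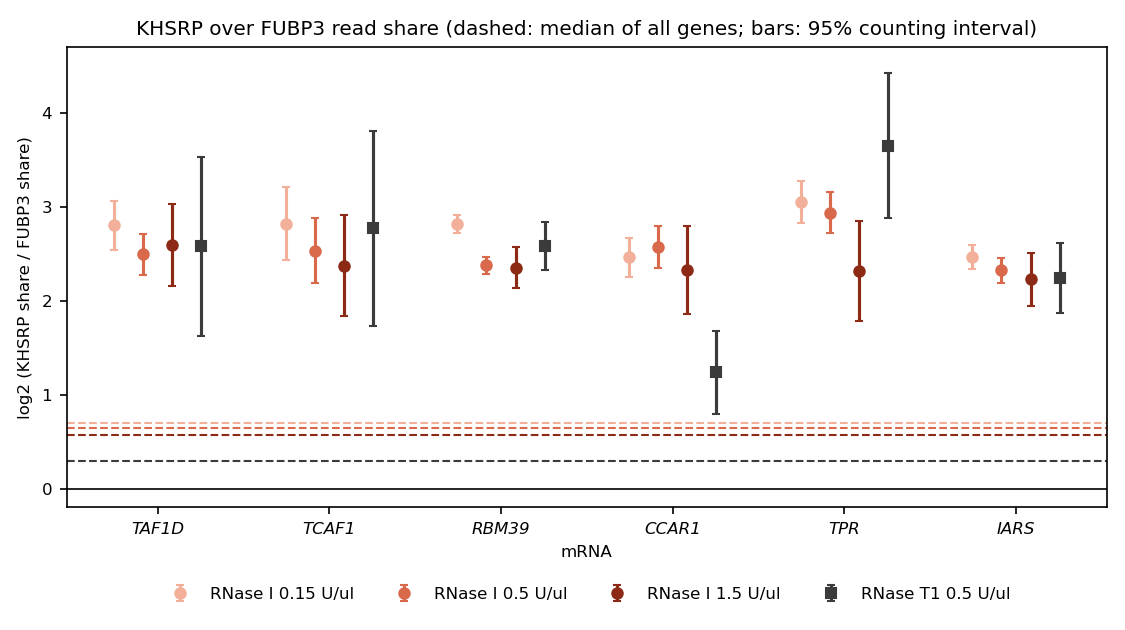
The log2 ratio of KHSRP to FUBP3 read share for each mRNA at 3 RNase I doses and with RNase T1, with 95% counting intervals; dashed lines are medians over all genes. The RNase T1 ratio of CCAR1, 1.24, is the lowest and that of TPR, 3.65, the highest.

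The libraries made with RNase T1 and a radioactive label took no part in the choice. RNase T1 cuts after G, whereas RNase I cuts after any base. The gene names deposited with these libraries often pointed elsewhere, since 41.2% of named clusters in KHSRP and 37.0% in FUBP3 lay inside the named gene, against 99.1% and 98.8% in the KHSRP and FUBP3 libraries at 0.5 U/µl RNase I. Reads were therefore assigned by position, to the gene span on the same strand.

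With RNase T1, RBM39 had 629 reads in KHSRP and 150 in FUBP3, and IARS had 248 in KHSRP and 75 in FUBP3. TPR had 132 reads in KHSRP and 15 in FUBP3, and CCAR1 had 109 in KHSRP and 66 in FUBP3. TAF1D had 46 reads in KHSRP and 11 in FUBP3, and TCAF1 had 43 in KHSRP and 9 in FUBP3. All 6 genes thus had more reads in KHSRP, although its library was the shallower one.

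As log2 ratios of read share, these were 2.58 (counting interval 2.33 to 2.84) for RBM39, 2.24 (1.87 to 2.61) for IARS and 3.65 (2.88 to 4.42) for TPR. They were 1.24 (0.80 to 1.68) for CCAR1, 2.58 (1.63 to 3.53) for TAF1D and 2.77 (1.73 to 3.81) for TCAF1. Of the 11 FUBP3 reads of TAF1D 6 lay over the snoRNA gene SNORA8, and without them the TAF1D ratio was 3.72 (2.38 to 5.05), on 46 reads in KHSRP and 5 in FUBP3. All 6 genes were higher in KHSRP, as were 56.8% of the 2326 genes with a cluster in both libraries, whose median was 0.29. All 6 were at least 2-fold higher, as were 30.4% of those genes. TPR ranked 43rd among them, TCAF1 150th, RBM39 185th, TAF1D 186th, IARS 271st and CCAR1 613th.

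Introns held most of the reads of the 6 mRNAs in both proteins. In KHSRP 87.6%, 91.2% and 85.7% of their reads were in clusters that the authors classed as intron, at 0.15, 0.5 and 1.5 U/µl, against 77.4%, 81.9% and 79.7% in FUBP3. Over all named clusters the intron share was 77.6%, 77.4% and 75.6% in KHSRP, against 51.6%, 51.2% and 58.5% in FUBP3. The reads of the 6 genes were more intronic than those of all genes in either protein, with the wider gap in FUBP3.

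The share in 3′ UTRs ran the other way. It was 2.51%, 1.03% and 3.30% of the 6 genes' reads in KHSRP, against 14.1%, 9.89% and 8.29% in FUBP3, while over all named clusters it was 12.3%, 13.2% and 11.3% in KHSRP, against 40.1%, 39.8% and 33.2% in FUBP3. For RBM39 the 3′ UTR had 117, 35 and 0 reads in KHSRP, against 106, 204 and 25 in FUBP3. Per 100000 cluster reads these are 5.39, 3.87 and 0 in KHSRP, against 6.30, 10.3 and 3.09 in FUBP3. Over its 3′ UTR, RBM39 was thus not higher in KHSRP at any dose. Not all of the genes followed it, since CCAR1 had 6.03, 0.663 and 11.5 in KHSRP, against 5.76, 0.810 and 2.59 in FUBP3, and TAF1D had 5.98 and 1.88 in KHSRP at the lower doses and none in FUBP3. Over the 3′ UTRs of the 6 genes together the level was 19.7, 7.84 and 15.0 in KHSRP, against 16.9, 13.8 and 7.40 in FUBP3.

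The split by region differed among the genes. Over intron clusters alone the log2 ratio of KHSRP to FUBP3 was 2.96, 2.59 and 2.60 for RBM39 and 3.57, 3.02 and 2.32 for TPR. Over all other clusters it was 1.25 and -0.70 for RBM39 and -0.14 and 1.54 for TPR at 0.15 and 0.5 U/µl, and at 1.5 U/µl there were no such reads in KHSRP. CCAR1 had 3.21, 2.71 and 2.51 over introns and 0.55, 0.06 and 2.07 elsewhere. IARS differed less, with 2.43, 2.39 and 2.31 over introns and 2.62, 1.51 and 1.54 elsewhere. Of the 6 genes, TCAF1, RBM39, TPR and IARS had at least 50 intron reads in each library, and these 4 were higher in KHSRP at each dose over introns, as were 69.6% of the 631 genes that reached this minimum; this split was chosen after the data were seen.

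CCAR1 had the lowest RNase T1 ratio, and most of its FUBP3 reads with that enzyme lay over the 3′ UTR. Its 3′ UTR clusters held 131, 6 and 23 reads in KHSRP at the 3 RNase I doses, against 97, 16 and 21 in FUBP3. With RNase T1 the same places held 6 of the 109 KHSRP reads and 37 of the 66 FUBP3 reads, which is 56.1% of the FUBP3 reads of the gene. Elsewhere in CCAR1 there were 103 reads in KHSRP and 29 in FUBP3, which is 81.8 per 100000 in KHSRP and 16.1 in FUBP3. RBM39 showed the same side by side, with 15 reads in KHSRP and 24 in FUBP3 over its 3′ UTR clusters, against 614 in KHSRP and 126 in FUBP3 elsewhere.

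By deposited class TAF1D was the exception to the intron pattern. The class alone does not place its reads outside the introns that host snoRNAs. SNORD5 and SNORA18 lie inside chr11:93732728-93734727, where clusters of the class processed transcript were densest in KHSRP at 0.15 U/µl. The class processed transcript held 50.6%, 66.6% and 77.4% of its reads in KHSRP, against 54.9%, 67.7% and 64.8% in FUBP3. Introns held 38.5%, 28.8% and 22.6% in KHSRP, against 41.4%, 21.3% and 35.2% in FUBP3. TCAF1, in contrast, had 6 reads outside introns in KHSRP at 0.15 U/µl and none in any other of these 6 libraries.

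**Figure D3:**
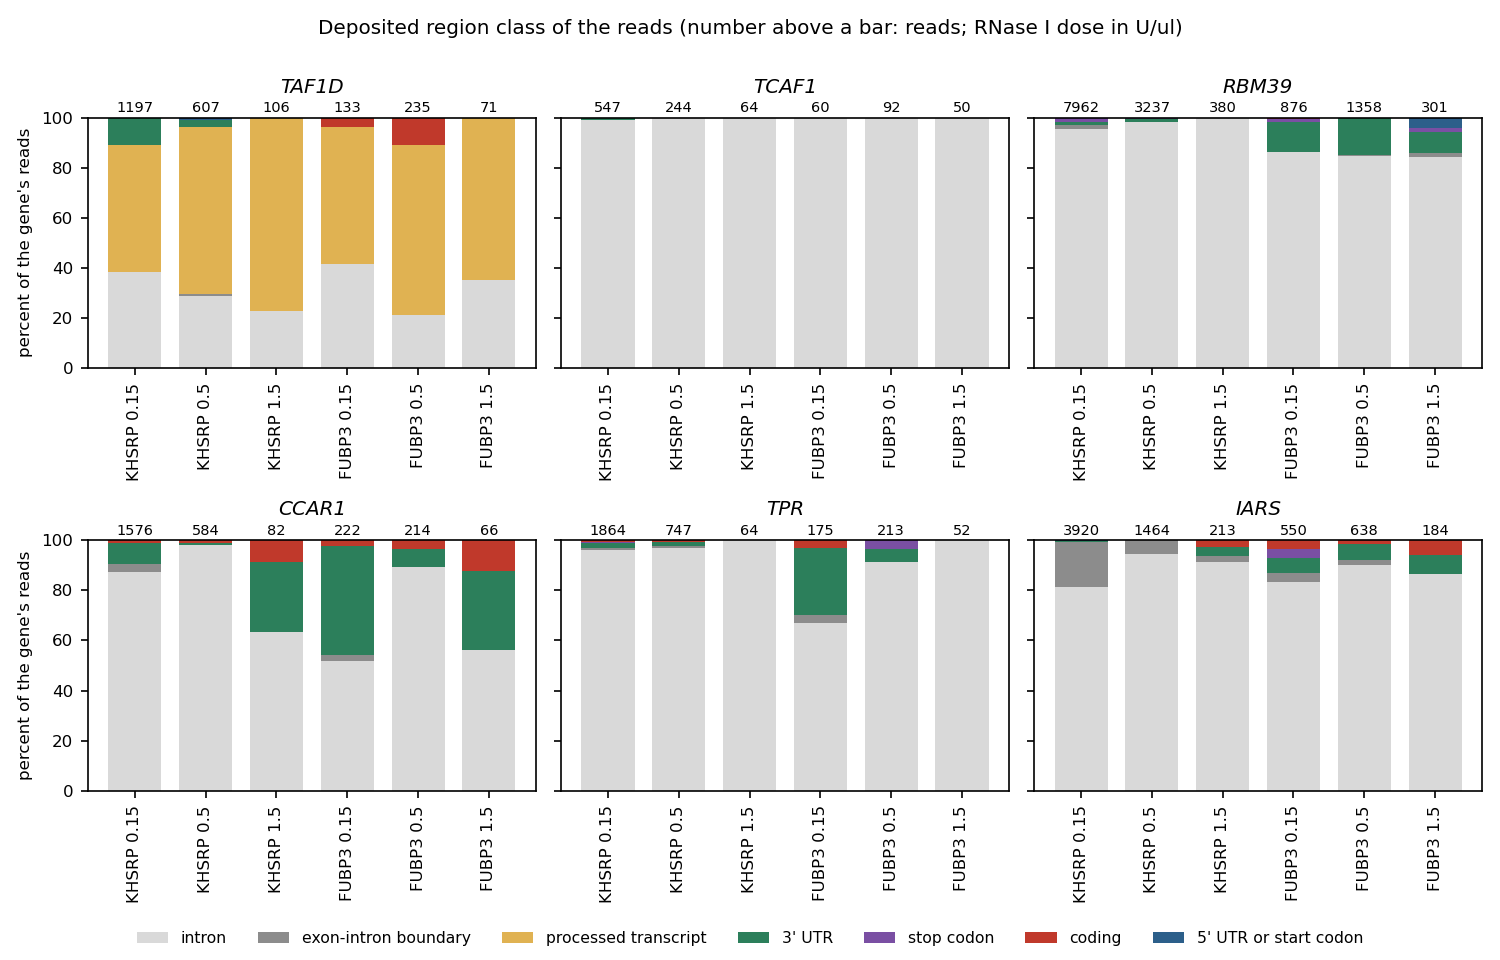
Percent of each gene's reads in each region class the authors gave, for KHSRP and then FUBP3 at 3 RNase I doses; numbers above bars are reads. Introns fill most of each bar except for TAF1D, where processed transcript does, and the 3′ UTR part is larger in FUBP3 for RBM39.

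The introns that carried the reads were located between clusters that the authors placed in exons, since exon coordinates were not used here, so a stretch named below may hold more than 1 intron. RBM39 spans chr20:35701347-35742260 on the minus strand. Its largest stretch at 0.15 and 0.5 U/µl in both proteins, chr20:35729547-35734203, lay 8.06 to 12.7 kb from the 5′ end and held 1600, 657 and 40 reads in KHSRP, against 223, 389 and 47 in FUBP3. The stretch chr20:35739449-35740458, near the 5′ end, held 1097, 380 and 39 in KHSRP, against 52, 51 and 28 in FUBP3. Its neighbour chr20:35736564-35739366 held 1007, 387 and 36 in KHSRP, against 67, 103 and 14 in FUBP3. In FUBP3 the first of these stretches held more reads than both others together at each dose, and in KHSRP it held fewer.

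At the other end of RBM39, chr20:35708006-35709231 held 868, 563 and 72 reads in KHSRP, against 59, 118 and 53 in FUBP3, the most of any stretch at 1.5 U/µl in both. With RNase T1 it held 177 reads in KHSRP and 41 in FUBP3. The largest RBM39 cluster of KHSRP at 1.5 U/µl, printed above, and that of FUBP3 at 0.15 U/µl fell here. RBM39 thus had reads at both ends and few in the middle, where the third of 5 equal parts of the gene held 2.86%, 1.98% and 2.11% of KHSRP reads.

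CCAR1 spans chr10:68721239-68792377 on the plus strand, and its KHSRP reads were in the middle. The third of 5 equal parts of the gene held 69.0%, 72.9% and 64.6% of them, and 71.6% with RNase T1. The stretch chr10:68754810-68755303 held 280, 155 and 29 reads in KHSRP and none in FUBP3 at any of the 3 doses, with 26 in KHSRP and 0 in FUBP3 after RNase T1. The next, chr10:68755383-68756380, held 266, 110 and 0 in KHSRP, against 12, 15 and 10 in FUBP3. The RNase T1 sequence of CCAR1 printed above lies in the first of them, beside SNORD98, a snoRNA whose own place held 9 and 8 KHSRP reads at 0.15 and 0.5 U/µl.

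IARS spans chr9:92210207-92293697 on the minus strand (IARS1 in RefSeq), and its reads gathered in the first and the third of 5 equal parts, which held 43.2% and 29.9% of KHSRP reads at 0.15 U/µl. The stretch chr9:92265276-92286359 held 800, 323 and 31 reads in KHSRP, against 115, 171 and 32 in FUBP3, and chr9:92286790-92287745 held 417, 249 and 14 in KHSRP, against 36, 76 and 32 in FUBP3. The stretch chr9:92249944-92251859 held 515, 172 and 27 reads in KHSRP, against 29, 0 and 0 in FUBP3. Clusters across an exon and intron boundary held 18.0%, 5.60% and 2.35% of IARS reads in KHSRP, against 3.64% and 2.04% in FUBP3 at 0.15 and 0.5 U/µl.

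TPR and TCAF1 were opposites in how their reads were spread. TPR spans chr1:186311652-186375253 on the minus strand, and each of 5 equal parts held between 13.3% and 28.6% of KHSRP reads at 0.15 U/µl. Its first stretch, chr1:186360395-186375253, held 471, 180 and 16 reads in KHSRP, against 41, 36 and 0 in FUBP3. TCAF1 spans chr7:143851375-143902176 on the minus strand, and the first of 5 equal parts held 92.9%, 95.9% and 100% of KHSRP reads, and all 43 RNase T1 reads of KHSRP. In FUBP3 that part of TCAF1 held 63.3%, 60.9% and 100%, and all 9 RNase T1 reads.

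**Figure D4:**
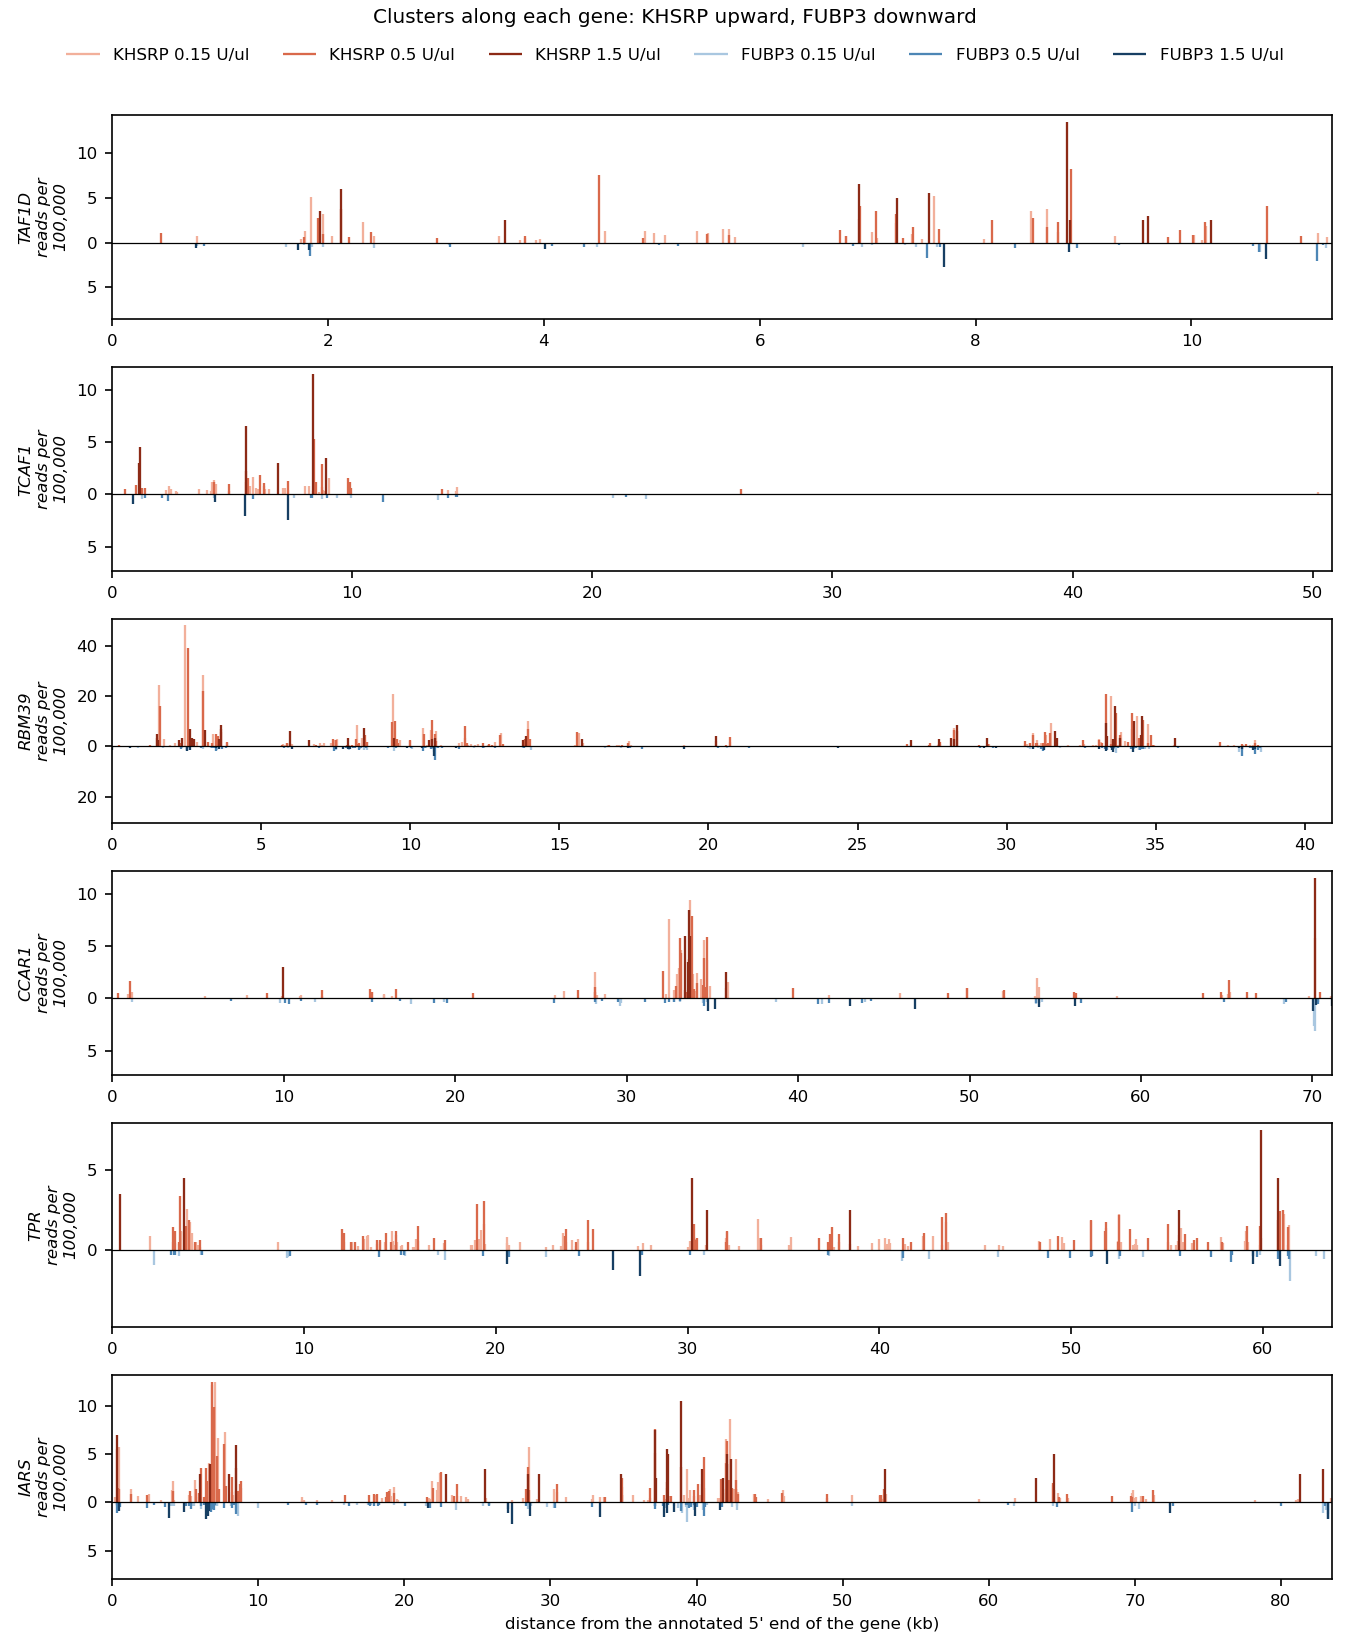
Clusters along each gene against distance from its 5′ end (kb), as reads per 100000 cluster reads, with KHSRP drawn upward and FUBP3 downward. KHSRP reads gather near the 5′ end of TCAF1 and in the middle of CCAR1 and run the whole length of TPR.

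To compare libraries at a fixed place, the 2 kb with the most KHSRP reads at 0.15 U/µl was found in each gene and read in the other libraries. For CCAR1 it was chr10:68754165-68756164 and held 823, 382 and 48 reads in KHSRP, against 17, 20 and 10 in FUBP3, which is 52.2%, 65.4% and 58.5% of the gene's reads in KHSRP, against 7.66%, 9.35% and 15.2% in FUBP3. With RNase T1 it held 37 reads (33.9%) in KHSRP and 5 (7.58%) in FUBP3. This window is 2.81% of the gene's length. Since KHSRP at 0.15 U/µl picked the windows, a high KHSRP share in them is built in.

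For RBM39 it was chr20:35738704-35740703, with 2582, 799 and 52 reads in KHSRP, against 109, 124 and 34 in FUBP3. That is 32.4%, 24.7% and 13.7% in KHSRP, against 12.4%, 9.13% and 11.3% in FUBP3, and with RNase T1 33.5% (211 reads) in KHSRP and 22.7% (34 reads) in FUBP3. For IARS, chr9:92285202-92287201 held 26.2%, 28.8% and 12.2% in KHSRP, against 14.0%, 21.0% and 9.78% in FUBP3, and with RNase T1 38.3% in KHSRP and 30.7% in FUBP3. These 2 genes thus had the place covered in both proteins.

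For TPR, chr1:186370670-186372669 held 13.1%, 12.9% and 14.1% in KHSRP, against 3.43%, 7.51% and 0% in FUBP3, and with RNase T1 21 reads in KHSRP and 0 in FUBP3. For TAF1D, chr11:93732728-93734727 held 40.9%, 37.1% and 32.1% in KHSRP, against 27.1%, 27.7% and 31.0% in FUBP3. For TCAF1, chr7:143896096-143898095 held 38.9%, 22.1% and 20.3% in KHSRP, against 8.33%, 9.78% and 46.0% in FUBP3. In TCAF1 at 1.5 U/µl the share was the higher one in FUBP3, and there the FUBP3 window rests on 23 reads and the KHSRP window on 13.

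The 2 kb with the most FUBP3 reads at 0.15 U/µl were then found in the same way, a step added after the data were seen, and in 0 of the 6 genes did they overlap those picked on KHSRP. For CCAR1 this was chr10:68789569-68791568, over the 3′ UTR, which held 131, 0 and 23 reads in KHSRP, against 106, 16 and 15 in FUBP3, and with RNase T1 6 of the gene's 109 reads in KHSRP and 37 of 66 in FUBP3. For RBM39 it was chr20:35732794-35734793, with 11.4%, 7.20% and 7.63% of the reads in KHSRP, against 18.2%, 9.50% and 11.3% in FUBP3. For TCAF1 it was chr7:143892224-143894223, with 24.1%, 45.1% and 46.9% in KHSRP, against 31.7%, 22.8% and 0% in FUBP3, so that only the dose that picked it had the higher share in FUBP3. That TCAF1 window rests on 19 FUBP3 reads at 0.15 U/µl. How often such windows fail to overlap over all genes was not counted, so the 0 of 6 cannot be read as a trait of these genes.

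**Figure D5:**
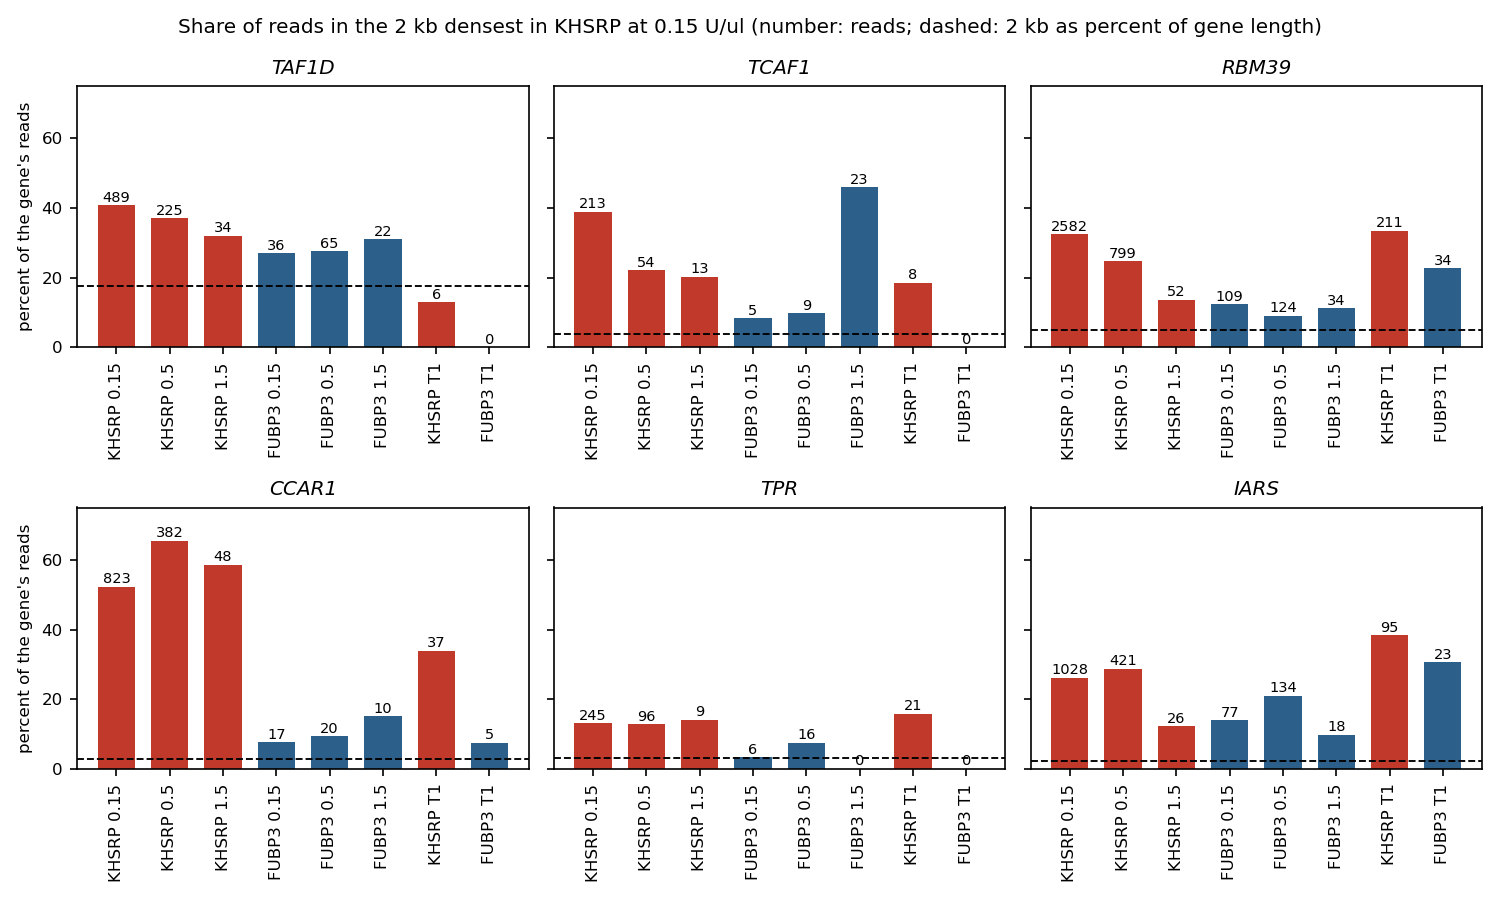
Percent of each gene's reads inside the 2 kb densest in KHSRP at 0.15 U/µl, for KHSRP and FUBP3 at each RNase I dose and with RNase T1; numbers are reads and the dashed line is the share of the gene's length. CCAR1 has 52.2%, 65.4% and 58.5% in KHSRP, against at most 15.2% in FUBP3 with RNase I.

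Most KHSRP clusters of the 6 genes at the higher doses lay where the lowest dose had one. Of the 327 clusters at 0.5 U/µl, 63.6% (Wilson interval 58.3% to 68.6%) overlapped a cluster at 0.15 U/µl by at least 1 base, against 27.1% of all clusters. Of the 96 at 1.5 U/µl, 60.4% overlapped one at 0.15 U/µl, against 19.5% of all. When 50% of both clusters had to overlap, these shares were 33.3% and 4.17% in the 6 genes, against 15.2% and 8.19% of all, so that at 1.5 U/µl the 6 genes were above all clusters by the first measure and below them by the second. The other way round, 35.2% and 8.64% of the 509 clusters at 0.15 U/µl overlapped one at 0.5 and 1.5 U/µl, against 13.2% and 2.90% of all. The clusters of the 6 genes were also deeper, at a mean of 33.5, 21.0 and 9.47 reads, against 12.2, 9.93 and 7.22 over all KHSRP clusters. The part of depth in the recurrence was not tested.

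In FUBP3 fewer of the 6 genes' clusters recurred. Of those at 0.5 U/µl 17.6% overlapped one at 0.15 U/µl, against 11.3% of all clusters, and 26.7% of those at 1.5 U/µl did so, against 13.9% of all. Of the 185 FUBP3 clusters at 0.15 U/µl 23.2% and 10.8% overlapped one at 0.5 and 1.5 U/µl, against 12.7% and 6.56% of all. RBM39 was the most often shared, at 25.5%, and TPR and TCAF1 had no shared cluster at 0.5 U/µl. In FUBP3 at 0.15, 0.5 and 1.5 U/µl, 53.0%, 59.2% and 73.3% of the 6 genes' clusters consisted of a single distinct sequence, against 71.0%, 71.9% and 79.3% of all FUBP3 clusters.

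Between enzymes, 50.5% of the 99 KHSRP clusters from RNase T1 overlapped a KHSRP cluster at 0.5 U/µl RNase I (40.8% to 60.1%), against 22.7% of all such clusters. In FUBP3 15.8% did (6 of 38), against 37.2% of all. Of the RNase I clusters at that dose, 14.1% in KHSRP and 1.63% in FUBP3 overlapped an RNase T1 cluster, against 3.27% and 2.71% of all in KHSRP and in FUBP3. Between enzymes the 6 genes thus recurred above the level of all clusters in KHSRP and below it in FUBP3. The genes were chosen for more RNase I reads in KHSRP than in FUBP3, so this difference is partly built in. Between RNase I doses their FUBP3 clusters recurred above the level of all clusters. Between proteins at the same dose, 55.1%, 32.7% and 12.0% of FUBP3 clusters in the 6 genes overlapped a KHSRP cluster, against 11.9%, 6.57% and 2.30% of all FUBP3 clusters, and 17.5%, 22.3% and 10.4% of KHSRP clusters overlapped a FUBP3 cluster, against 10.5%, 13.0% and 6.59% of all. The choice of the genes favours overlap with KHSRP clusters, so the excess among FUBP3 clusters is partly built in.

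Only places of a gene's 3 largest clusters in any KHSRP library were followed here. Of these, 13 were covered in all 3 KHSRP libraries, with 5 in RBM39, 2 each in TAF1D, TCAF1 and IARS, and 1 each in CCAR1 and TPR. Recurring places of smaller clusters are not in this count, which was not made over all genes. At chr20:35739502-35740096 in RBM39 there were 1050, 380 and 39 reads in KHSRP, against 52, 51 and 28 in FUBP3. At chr20:35739041-35739359, the place of the RNase T1 sequences printed above, there were 618, 215 and 13 in KHSRP, against 17, 14 and 0 in FUBP3, and with RNase T1 167 in KHSRP and 25 in FUBP3. At chr10:68754838-68755101 in CCAR1 there were 204, 147 and 29 in KHSRP and none in FUBP3. Of these 13 places, the CCAR1 one and chr9:92251322-92251510 in IARS, with 188, 21 and 9 KHSRP reads, had no FUBP3 read at any dose, which the choice of the genes favours.

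TAF1D is a host gene of snoRNAs, and reads named after them are not counted in its level above in the RNase I libraries. Its span, chr11:93730194-93741495, holds 8 annotated snoRNAs. Clusters named after them held 1158, 96 and 54 reads in KHSRP, against 50, 29 and 12 in FUBP3. In KHSRP at 0.15 U/µl SNORA32 had 326 reads, SNORD5 249, SNORA1 202, SNORA8 176, SNORA18 115, SNORD6 69 and SNORA25 21, whereas SNORA40 had none. At that dose the snoRNA clusters nearly equalled the reads of TAF1D itself, 1197, and at the higher doses they were the smaller part.

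U2AF1 reads on the same genes were mostly at the border of intron and exon in some genes and in exons in others. U2AF1 had 98 and 33 reads on TAF1D at 1.5 and 15 U/ml, 191 and 117 on RBM39, and 111 and 93 on CCAR1. It had 34 and 49 reads on TPR, 40 and 92 on IARS, and 0 on TCAF1. Of the reads on the 6 genes 52.1% and 48.2% were in clusters across an exon and intron boundary, against 29.9% and 13.9% over all named clusters, and 9.07% and 10.7% were in introns, against 31.3% and 42.5%. CCAR1 had the highest boundary share, at 94.6% and 89.2%, and IARS had 70.0% and 56.5% and TPR 41.2% and 61.2%. RBM39 had 33.5% and 17.1%, with 26.7% and 72.6% in coding sequence. TAF1D had 36.7% at 1.5 U/ml and no boundary cluster at 15 U/ml. Clusters with merged names that include TAF1D were counted here, and 7 of its 98 reads at 1.5 U/ml carried the name TAF1D alone. Of those 98 reads, 22 lay over the snoRNA gene SNORA40. These shares rest on few clusters, 3 and 4 in CCAR1, and 3 and 5 in both IARS and TPR. RBM39 had 11 and 6 clusters, and TAF1D 5 and 2.

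The U2AF1 clusters below are shown because the authors classed each as both intron and exon. They are the largest such cluster of each gene at 1.5 U/ml, and the second of CCAR1. Capitals mark the longest run of C and T.
TAF1D, U2AF1, chr11:93731201-93731229, minus strand: caTTTTTCCacaggtgaattttgaagtct
CCAR1, U2AF1, chr10:68722442-68722486, plus strand: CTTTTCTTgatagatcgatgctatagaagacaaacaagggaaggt
CCAR1, U2AF1, chr10:68786537-68786561, plus strand: TTTTCTTaggaaaaagaaaagactc
RBM39, U2AF1, chr20:35724705-35724738, minus strand: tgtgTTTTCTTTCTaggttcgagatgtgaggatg
TPR, U2AF1, chr1:186325819-186325865, minus strand: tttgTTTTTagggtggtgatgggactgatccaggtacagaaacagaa
IARS, U2AF1, chr9:92249914-92249943, minus strand: agtaTCCTTTgaaagaaattgtggttatcc
These held 36 reads in TAF1D, 60 and 45 in CCAR1, 24 in RBM39, 14 in TPR and 28 in IARS. An AG, as at the end of an intron, follows the pyrimidine run directly in the RBM39, the TPR and the second CCAR1 sequence. In the others an AG comes a few bases after the run, as acag in TAF1D, gatag in the first of CCAR1 and gaaag in IARS. The IARS sequence also opens with an AG, before the marked run. Which AG ends an intron was not determined. The largest CCAR1 cluster at 15 U/ml, chr10:68757284-68757321 with 65 reads, was another boundary. Of the U2AF1 clusters in the 6 genes 6 of 25 at 1.5 U/ml and 6 of 22 at 15 U/ml overlapped a KHSRP cluster at 0.15 U/µl, or 24.0% and 27.3%, against 6.97% and 4.64% of all U2AF1 clusters. The genes were chosen for their reads in KHSRP, so this excess is partly built in, and it rests on few clusters. Of the 509 KHSRP clusters 1.18% overlapped a U2AF1 cluster at each dose, against 0.308% and 0.0729% of all KHSRP clusters.

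CPSF1 had few reads on these genes, and its level was lower than that of KHSRP at the same dose in each of them. At 0.5 U/µl RNase I CPSF1 had 21 reads on TAF1D, 43 on RBM39, 63 on CCAR1, 29 on TPR, 68 on IARS and 0 on TCAF1. Per 100000 these are 11.6 for TAF1D, 23.8 for RBM39, 34.9 for CCAR1, 16.1 for TPR and 37.7 for IARS. Introns held 74.1% of them, against 71.0% over all named CPSF1 clusters. The largest RBM39 cluster of CPSF1 was in the 3′ UTR and held 14 of its 43 reads, and 7.41% of the CPSF1 clusters (2 of 27) overlapped a KHSRP cluster at the same dose, against 3.19% of all CPSF1 clusters, while 0.612% of the 327 KHSRP clusters overlapped one of CPSF1, against 0.746% of all KHSRP clusters. The choice of the genes also favours overlap of CPSF1 clusters with KHSRP clusters.

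The motifs were searched on the transcribed strand of intron clusters, with overlaps among motifs allowed. TGTAT was in 21.0%, 20.9% and 15.7% of the 6 genes' KHSRP clusters, against 15.5%, 15.5% and 10.7% of all KHSRP intron clusters, and in 14.3%, 11.6% and 11.7% of their FUBP3 clusters, against 10.7%, 11.1% and 10.1% of all. The KHSRP clusters of the 6 genes had medians of 35, 33 and 30 bases, against 30 over all at each dose, and so were longer at the lower doses only. Per kilobase of cluster TGTAT stood at 4.77, 5.40 and 5.43 in the 6 genes' KHSRP clusters, against 5.25, 5.68 and 3.93 over all KHSRP intron clusters, a measure chosen after the data were seen. TGTGT stood at 2.83, 2.90 and 4.66 per kilobase in the 6 genes, against 4.53, 4.73 and 3.59 over all, while by share of clusters it was in 12.9%, 11.5% and 10.8%, against 12.0%, 11.3% and 8.44%, so that its order depended on the dose and the measure. The share of T was 38.7%, 40.2% and 39.1%, against 38.8%, 39.7% and 35.7% over all.

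The genes whose log2 read shares across the 6 KHSRP and FUBP3 libraries were most like the mean profile of the 6, by Pearson correlation over these 6 libraries, were DZIP1 (0.999), CNOT1 (0.998), WDR11 (0.998), ZNF207 (0.998) and BIRC6 (0.997). Of 783 genes compared 287 were over 0.9, so that the pattern is common, and the libraries share their depth and protein. Their log2 ratios were smaller than those of the 6, at 2.03, 1.76 and 1.77 for DZIP1 and 1.47, 1.20 and 1.36 for BIRC6.

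The measured relatives of the 6 genes were also mostly higher in KHSRP. So were 474 of the 789 genes measured, whose mean log2 ratio over the doses had a median of 0.64. Measured genes had at least 50 reads in each of the 6 libraries. The shallowest of these was KHSRP at 1.5 U/µl, with 200210 reads in clusters, against 810326 in FUBP3 at that dose. The minimum thus favours genes high in KHSRP, and the share of genes higher in KHSRP rose with it. These counts therefore do not speak for relatives below the minimum. Of the RBM39-related splicing factors, 5 others were measured, SF3B1, RBM25, RBM17, SRRM1 and SRRM2, and all 5 were higher at each dose, with a median of 1.26. Of the nuclear pore genes 7 other than TPR were measured, and all 7 were higher, with a median of 1.36, from 0.40 for NUP58 to 1.79 for NUP205, a scaffold nucleoporin. Of the cytoplasmic tRNA synthetases other than IARS, LARS, for leucine, had 2.06 and TARS, for threonine, 1.61. NCOA1, a p160 coactivator and the one relative of CCAR1 measured, had -0.53, -0.77 and 0.32 at the 3 doses and so was mixed in direction. No relative of TAF1D or TCAF1 in the lists reached the minimum.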

How the data were processed

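The authors deposited, for each library, a table of clusters with their position on hg38, strand, sequence, class, gene name and read counts, and for most libraries the fraction of reads with a T-to-C change, per the file headers. Reads were handled with bcl2fastq 2.20.0 and cutadapt 1.15, per the submitters' processing notes. The aligner and the cluster caller are not given in the sources used here. Depth per library ranged from 75383 to 2172248 reads in clusters, and no cluster held fewer than 4 reads.

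Reads were summed per gene by deposited name, or by RefSeq gene span (GRCh38.p14) for RNase T1, divided by the library's cluster reads, and compared as log2 ratios (Python 3.11.15, pandas 2.3.3, scipy 1.17.1). Genes needed 50 reads in each of the 6 RNase I libraries. Intervals were Clopper-Pearson for levels and Wilson for shares, and no limit was set for 0 reads, since small clusters are not listed. The procedure was tested on simulated counts. Groups followed the sample titles, whose RNase doses were used, although the protocol text gives a single RNase I concentration. The 6 genes and all lists were chosen with earlier results of these data known. The genes named are the 6 genes themselves, the 5 most like them, those ranked beside them and the measured genes of the lists. Of the AGO2 libraries, those with 0.15 and 1.5 U/µl RNase I were read for the 6 genes. The alternatives changed scaling, minimum, cluster depth, gene assignment and overlap.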

Additional observations from a re-analysis of the deposited data

Results flagged for a closer look

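AGO2, the protein that carries microRNAs, was outside the comparisons above. IARS had 7 reads in 1 cluster in the AGO2 library at 0.15 U/µl RNase I, where the smallest cluster listed holds 5 reads. By position the span of IARS held 16 reads in 2 clusters, the second of which was named after the snoRNA SNORA84. The other 5 genes had none there, and none of the 6 had any at 1.5 U/µl.

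Reads on the opposite strand within the gene spans were also found, at or above that smallest size. There were 5 within TAF1D in KHSRP at 0.15 U/µl and 5 within TPR in KHSRP at 1.5 U/µl. AGO2 at 0.15 U/µl had 25 opposite-strand reads in TPR, in an unannotated cluster of 28 bases that lies 2.56 kb from the 5′ end of TPR and overlaps the KHSRP one.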

How the results depend on the processing

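The log2 ratios of KHSRP to FUBP3 lay between 2.23 and 3.05 for the 18 values of the 6 genes, between 2.22 and 3.34 with median-of-ratios scaling, between 2.33 and 3.37 with distinct sequences, between 2.09 and 3.29 without each gene's largest cluster, between 2.23 and 3.32 by gene span, and between 1.96 and 3.57 over intron clusters only, which was added after the data were seen. With clusters of at least 3 distinct sequences 1 gene could still be compared at all doses, since the others had no FUBP3 reads left at some dose. The RNase T1 ratios lay between 1.24 and 3.65, between 0.95 and 3.36 with median-of-ratios scaling, between 1.16 and 3.81 with distinct sequences, between 1.42 and 4.99 without the largest cluster, and between 1.24 and 3.72 without clusters over snoRNAs. Median-of-ratios scaling moved all log2 ratios by 0.29, 0.28 and -0.01 at the 3 doses. With at least 10 reads per library, 29.6% of genes were higher in KHSRP at each dose, and with at least 200 reads 85.2%. Overlap of 50% of both clusters lowered the sharing of the 6 genes' KHSRP clusters with 0.15 U/µl to 33.3% at 0.5 U/µl and 4.17% at 1.5 U/µl, against 15.2% and 8.19% of all clusters, so that the order turned round at 1.5 U/µl, and with clusters of at least 3 distinct sequences it was 74.7% and 79.1%, against 46.0% and 55.2% of all. The intron share of the 6 genes, counted in clusters in place of reads, was 89.8% and 87.8% in KHSRP at 0.15 and 0.5 U/µl, and 83.2% and 87.8% in FUBP3, and with clusters of at least 3 distinct sequences it was 69.0%, 73.5% and 100% in FUBP3 at the 3 doses. The densest 2 kb, with distinct sequences or with such clusters, overlapped the one reported for 6 of 6 genes. Picked on FUBP3 at 0.15 U/µl it did so for 0 of 6, a count not made over all genes. The cause of these changes was not tested.

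Regions from a reference annotation, and distinct sequences for U2AF1, were not run, since no exon annotation was used and the U2AF1 tables give no distinct count. No paired analysis was possible because each group holds 1 replicate number, and a fit paired by dose was left out because the KHSRP and FUBP3 contrast chose the genes. Depth limits the RNase T1 libraries most for single genes, where TCAF1 rests on 43 reads in KHSRP and 9 in FUBP3, and the U2AF1 library at 15 U/ml had the fewest reads.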
